A study of Arabidopsis thaliana with 32 samples.

Results

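Beside the known genes of Arabidopsis thaliana, the deposited transcript tables hold transcripts that were assembled from the reads and that the tables assign to no annotated gene. A member was an assembled transcript (name starting with MSTRG) whose gene identifier was no Arabidopsis locus and which shared its assembled gene with no annotated transcript. The continuous-light table held 1176 such transcripts in 940 assembled genes, of 66968 transcripts in all, and the long-day table held 973 in 781 assembled genes, of 70053. With a mean of at least 1 FPKM over the libraries there were 456 members in 375 assembled genes in continuous light and 440 in 372 in long days, and these are described. FPKM counts the fragments of a transcript relative to its length and to the mapped fragments of the library, so levels can be compared between transcripts of different length. Just below this minimum lay MSTRG.8199.1 at 0.999 FPKM in continuous light and MSTRG.12208.1 at 0.998 in long days. Just above it lay MSTRG.12978.12 at 1.003 and MSTRG.23191.1 at 1.0001.

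Whole seedlings of the Col-0 accession were grown on plates for 8 days in long days of 16 h light and 8 h dark at 24 °C. Seedlings of one set then went into continuous light, and those of the other stayed under the day and night cycle. The labels give this stage as 2 days and the design text as 1 day. Total RNA was sequenced every 3 h from 2 h to 47 h in each regime, with 16 libraries per regime and 1 library per time point. Hours of the long-day libraries count from the start of a light period, so 17, 20 and 23 h are dark, and the same hours in continuous light are called the subjective night. The labels do not say how many seedlings a library pools or whether libraries came from separate plates, so p-values measure the spread between these libraries around a fitted curve. Tables were assembled separately, and members were paired between them by position alone. Values summed to 578473 to 622006 FPKM per continuous-light library and 569534 to 587307 FPKM per long-day library. Members made up 0.472 to 0.593% of this sum in the first regime and 0.637 to 0.747% in the second. Nuclear members alone made up 0.467 to 0.582% and 0.516 to 0.585%, ranges that overlap, while those of all members do not. The number of reads behind these values is unknown.

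Plant genomes are transcribed beyond their protein-coding genes. Pseudogenes are decayed copies of genes that can still be transcribed, and retrotransposons are elements that copy themselves through RNA. MicroRNAs are cut from longer primary transcripts that RNA polymerase II makes. Natural antisense transcripts run across a gene on the other strand, and some regulate that gene. The circadian clock of Arabidopsis drives about-daily rhythms in many transcripts, partly through the evening element, a promoter motif bound by clock transcription factors. An assembler joins reads into transcript models. It can place a model on the wrong strand where a library does not keep strand, and it reads the direction of a spliced read from the bases at the ends of the gap. The sources used here do not say whether these libraries kept strand. Without strand, reads from a gene and from its antisense partner cannot be told apart.

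The sequences that carry the results follow, all from the RefSeq TAIR10.1 assembly and written from 5′ to 3′. The first 3 are the first 300 bases of the spans of members that are described below by their level or rhythm. They are MSTRG.12949.1 (chr3:12559767-12560066, minus strand), a spliced transcript where the reference lists no gene, MSTRG.9537.1 (chr2:14162668-14162967, plus strand), an unspliced transcript at another such place, and MSTRG.7040.1 (chr2:7079587-7079886, printed from the plus strand since the table gave none), at a defensin-like pseudogene. The printed bases of MSTRG.9537.1 hold an ATG whose reading frame meets no stop among them. The lack of a listed gene thus does not make it noncoding, and whether it codes for protein was not tested.
MSTRG.12949.1: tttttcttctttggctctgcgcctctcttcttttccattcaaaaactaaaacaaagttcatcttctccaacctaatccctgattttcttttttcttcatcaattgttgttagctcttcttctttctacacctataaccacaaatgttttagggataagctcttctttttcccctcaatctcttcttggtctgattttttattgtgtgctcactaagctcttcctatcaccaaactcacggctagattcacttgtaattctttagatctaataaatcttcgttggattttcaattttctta
MSTRG.9537.1: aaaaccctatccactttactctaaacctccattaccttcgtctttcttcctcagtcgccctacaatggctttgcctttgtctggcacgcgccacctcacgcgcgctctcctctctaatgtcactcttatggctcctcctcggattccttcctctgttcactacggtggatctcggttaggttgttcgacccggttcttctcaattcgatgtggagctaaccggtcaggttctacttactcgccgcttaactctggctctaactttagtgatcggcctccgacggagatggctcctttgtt
MSTRG.7040.1: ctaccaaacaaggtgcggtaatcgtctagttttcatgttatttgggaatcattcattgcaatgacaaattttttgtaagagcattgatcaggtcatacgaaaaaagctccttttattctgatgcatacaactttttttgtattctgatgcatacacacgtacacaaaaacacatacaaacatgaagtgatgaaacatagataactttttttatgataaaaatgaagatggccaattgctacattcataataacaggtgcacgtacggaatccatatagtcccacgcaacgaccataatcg
The next sequence is the hairpin of MIR398c (chr5:4694694-4694808, plus strand), over which members lay in both tables. Capitals mark the mature forms, miR398c-5p first and miR398c-3p second.
MIR398c: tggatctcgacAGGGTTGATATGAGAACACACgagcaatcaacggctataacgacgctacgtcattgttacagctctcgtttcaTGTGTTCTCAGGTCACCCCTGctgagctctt
The whole span of MSTRG.8537.1 (chr2:13864351-13864577, plus strand) lies opposite the glycine-rich protein gene GRP23. Capitals mark both copies of a repeat of 17 bases, which start 21 nt apart, the length that the transcript skips.
MSTRG.8537.1: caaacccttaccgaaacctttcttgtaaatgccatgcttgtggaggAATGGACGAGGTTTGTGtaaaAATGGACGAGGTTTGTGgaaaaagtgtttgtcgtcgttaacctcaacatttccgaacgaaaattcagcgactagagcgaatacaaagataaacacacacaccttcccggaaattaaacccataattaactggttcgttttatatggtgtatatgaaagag
The next pair are 60 bases at chr1:2456121-2456180 and 60 bases at chr1:2459578-2459637 (plus strand) from 2 neighbouring genes of translation elongation factor EF1A, which MSTRG.780.1 spans on the other strand. They are the start of a run of 442 identical bases at a distance of 3457 nt.
First copy: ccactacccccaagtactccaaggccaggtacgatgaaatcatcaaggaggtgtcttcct
Second copy: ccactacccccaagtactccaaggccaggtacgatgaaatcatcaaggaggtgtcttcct
The last set are the starts of introns whose exact length members on the other strand skip, on the strand of the gene, with 12 exon bases before the intron and its first 8 bases in capitals. They lie at chr2:19540713-19540752 (minus) for UXS4, chr4:2495463-2495502 (minus) for NSF, chr1:25482025-25482064 (minus) for POD1, chr4:18013186-18013225 (minus) for VAB2 and chr4:14894938-14894977 (plus) for AT4G30470.
UXS4: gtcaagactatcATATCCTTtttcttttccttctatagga
NSF: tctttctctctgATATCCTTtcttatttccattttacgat
POD1: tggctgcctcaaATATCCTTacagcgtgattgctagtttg
VAB2: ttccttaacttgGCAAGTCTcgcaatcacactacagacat
AT4G30470: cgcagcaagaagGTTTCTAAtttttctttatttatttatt

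Members were shorter, less often spliced and lower than annotated transcripts. Their median length was 491 nt in continuous light and 527.5 nt in long days, against 1673 and 1676 nt for annotated transcripts of the same minimum. The median of the mean levels was 2.40 and 2.82 FPKM, against 5.996 and 6.30 FPKM, and the minimum cuts through the lowest members. In continuous light 139 members had 1 exon, 188 had 2 and 129 had 3 or more, and in long days the counts were 128, 167 and 145. Of annotated transcripts in continuous light 13.8% had 1 exon and 12.6% had 2, against 30.5% and 41.2% of members. A level of at least 10 FPKM was reached by 65 members in continuous light and 78 in long days. Most members were seen throughout, with 353 of 456 and 367 of 440 above 0 in every library. Median GC content of the spans was 38.4% in continuous light and 38.3% in long days.

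Members lay on all 5 nuclear chromosomes and in both organelles. In continuous light chromosomes 1 to 5 held 109, 78, 94, 68 and 93 members, the plastid genome held 10 and the mitochondrial genome 4. In long days the counts were 99, 84, 92, 56 and 87, with 14 in the plastid and 8 in mitochondria. The strand was plus for 203 and minus for 181 in continuous light, and plus for 202 and minus for 190 in long days. No strand was given for 72 and 48, and each of these had 1 exon. Some places carried a member on each strand with the same ends, 3 in continuous light and 7 in long days. One such place in long days, near AT5G14820, held MSTRG.21759.1 on the plus strand at 12.84 FPKM and MSTRG.21758.1 on the minus strand at 12.83 FPKM.

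Most members lay at genes of the RefSeq reference. Between them the tables listed all 27444 protein-coding genes and all 3480 long noncoding RNA genes of the reference, but none of its 926 transcribed pseudogenes, 1 of its 3917 other pseudogenes and none of its 508 genes of the class misc_RNA. At reference pseudogenes of either strand, with no coding gene, lay 171 of the 456 members in continuous light (37.5%) and 167 of 440 in long days (37.95%). A further 150 (32.9%) and 146 (33.2%) overlapped genes on the other strand alone, with a coding gene among them (opposite a coding gene alone), 54 (11.8%) and 37 (8.41%) lay at noncoding RNA genes, and 48 and 57 met a coding gene and other genes. The reference listed no gene at the place of 33 members in each table (7.24% and 7.5%). Members at pseudogenes were the longest class, with a median length of 889 and 982 nt, and those opposite coding genes the shortest, at 298 and 333.5 nt. Their median levels were 3.10 and 3.18 FPKM at pseudogenes and 2.19 and 2.25 FPKM opposite coding genes.

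**Figure D1:**
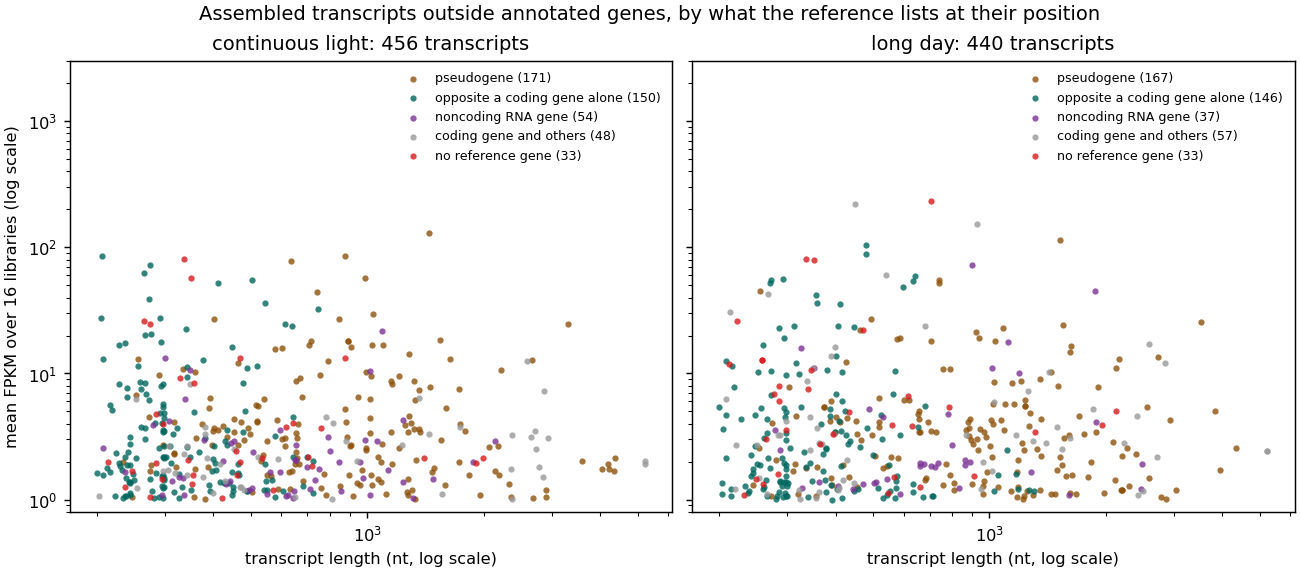
Mean FPKM over 16 libraries (log scale) against transcript length in nt (log scale) for the 456 members in continuous light and the 440 in long days, 1 point per transcript, coloured by what the reference lists at the position. Members opposite a coding gene alone lie mostly at short lengths, with a median of 298 nt in continuous light, and members at pseudogenes reach greater lengths, with a median of 889 nt.

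Counted against the annotated transcripts of the tables, 187 members in continuous light and 175 in long days overlapped annotated transcripts on the other strand alone. No annotated transcript overlapped 244 and 223 members. Annotated transcripts on both strands were overlapped by 8 and 29 members, and on the member's own strand alone by 6 and 6. The tables gave these members another gene identifier. A further 11 and 7 members overlapped annotated transcripts but had no strand themselves. When the overlap had to cover 50% of the member, 136 and 119 lay opposite an annotated transcript.

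Most places were found in both tables, but with different ends. Any base was shared with a member of the other table by 374 of the 456 members in continuous light (82.0%) and by 397 of the 440 in long days (90.2%), where the other table's members of any level counted. At 50% of both spans the counts were 343 (75.2%) and 368 (83.6%), at 80% they were 306 (67.1%) and 324 (73.6%), and start and end were identical for 40 (8.77%) and 46 (10.45%). Of 262 pairs at 50% overlap with a mean of at least 1 in both tables, 236 had the same strand label, 10 had opposite labels and 16 had a strand in 1 table only. Strand labels went with splicing. Where both models had 2 or more exons, 177 of 178 pairs had the same label, and where both had 1 exon, 56 of 80 did. The 236 and the 56 include 33 pairs with no strand in either table, which were counted as having the same label. The unspliced 462 nt transcript at the pseudogene AT3G07280 had the same ends in both tables and was labelled minus in continuous light (MSTRG.10822.1) and plus in long days (MSTRG.11943.1). No member of the other table lay at the place of 82 members in continuous light and 43 in long days, and at 71 and 24 of these places the other table had an assembled transcript of an annotated gene instead.

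The transcript highest in continuous light was a Sadhu element. MSTRG.6853.1, an unspliced transcript of 1440 nt (chr2:4005856-4007295, minus), covered SADHU1-1, a member of the Sadhu family of retroposons of Arabidopsis. Its lowest, median and highest library stood at 85.2, 129 and 190 FPKM, and its counterpart in long days, MSTRG.7403.1, stood at 66.3, 114 and 153 FPKM, so the regimes overlapped. In all 9 members in continuous light and 10 in long days lay at 7 distinct Sadhu loci in each table, and the next highest was MSTRG.2894.1 at 18.3 FPKM, with MSTRG.3053.1 at its place in long days at 24.4 FPKM. The Sadhu loci were singled out after values were seen.

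Among nuclear transcripts with no reference gene, 2 stood far above the class median of 2.13 FPKM in continuous light. MSTRG.8606.1 (chr2:14162664-14162999) lay 46 nt from AT2G33420 and ranged from 55.8 to 105 FPKM with a median of 79.96 in continuous light, and its counterpart MSTRG.9537.1 ranged from 60.2 to 101 FPKM with a median of 82.0 in long days. MSTRG.12949.1 (chr3:12559595-12560066), a 2-exon transcript of 350 nt that lay 616 nt from its nearest gene, ranged from 37.9 to 73.0 FPKM with a median of 58.1. Its long-day counterpart MSTRG.14315.1 ranged from 51.7 to 112 FPKM with a median of 73.4. Neither place had another copy in the genome over 50% of its span at 90% identity, a match that 66 of 453 members searched in continuous light (14.6%) and 81 of 424 in long days (19.1%) had.

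Another 3 of the highest members in continuous light lay at pseudogenes, 2 of unknown proteins and 1 of a defensin-like protein. MSTRG.15249.2 at AT4G04692 had a lowest, median and highest library of 21.6, 93.1 and 115 FPKM, MSTRG.7040.1 at AT2G16367 of 8.54, 71.2 and 187 FPKM, and MSTRG.6221.1 at AT1G79245 of 16.6, 55.8 and 88.7 FPKM. The highest library stood at over 5 times the lowest for each of them.

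In long days the highest member was a plastid model whose level was high in some libraries and 0 in the others. MSTRG.26526.1, an unspliced minus-strand transcript (chrPt:31907-32611) that began 100 nt from psbD, which encodes the D2 protein of photosystem II, had 420 to 662 FPKM in the libraries at 2, 8, 11, 14, 17, 20 and 23 h and 0 in the other 9. MSTRG.26519.1, a 2-exon plus-strand transcript with the same end at base 32611, had 2.45 to 4.74 FPKM in those 7 libraries and 63.8 to 389 FPKM in the other 9. The 2 transcripts therefore never stood high in the same library. Whether the libraries kept strand is unknown, and whether the RNA itself changed between libraries was not tested. A second plus-strand form, MSTRG.26519.2, had 87.6 to 255 FPKM in 8 of the 9 libraries and 1.14 FPKM at 32 h. The first day held 7 of the libraries with the minus-strand form and the library at 5 h stood with those of the second day. No 24 h rhythm was called for MSTRG.26526.1 (adjusted p = 0.91, limma). Next in level was another plastid model, MSTRG.26575.1 (chrPt:81301-126890), with a lowest, median and highest library of 144, 204 and 344 FPKM for 450 nt of exons in a span of 45590 nt.

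**Figure D2:**
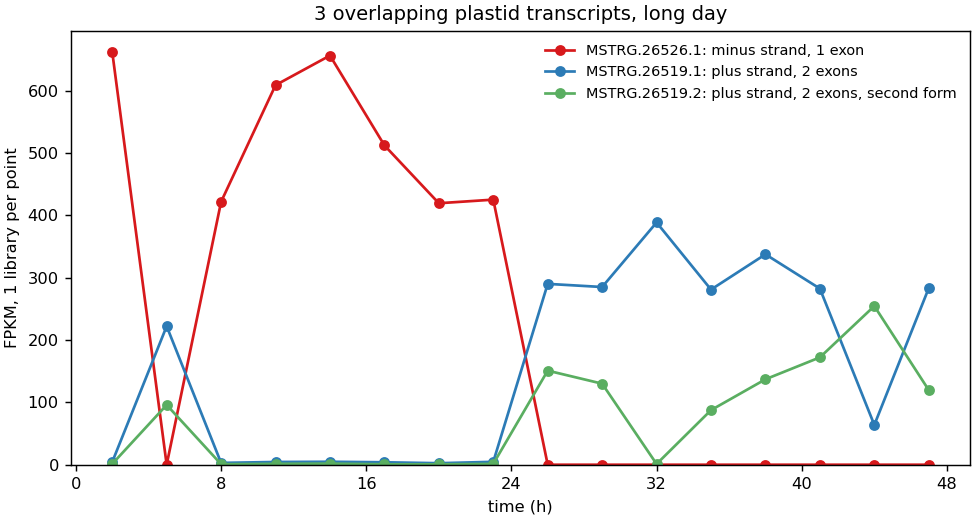
FPKM of 3 overlapping plastid transcripts against time in h in the long-day libraries, 1 library per point. The minus-strand transcript stands at 420 to 662 FPKM in 7 libraries and at 0 in 9, and MSTRG.26519.1 on the plus strand stands at 63.8 to 389 FPKM in those 9.

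Members at or near microRNA genes formed a small group, looked up after values were seen. Whether they are primary transcripts of microRNAs was not tested. A microRNA gene was overlapped by 16 members in continuous light and 12 in long days, on the same strand in every case. Another 4 and 6 members, at places with no reference gene, lay within 500 nt of one, among them MSTRG.9224.1, which lies 48 nt from MIR160a. Of the 4 in continuous light, 3 lay on the strand of the microRNA gene. In all 14 and 16 distinct microRNA genes were met, and MIR171b, MIR830, MIR825, MIR160a, MIR157c, MIR447a, MIR824, MIR156c and MIR398c were met in both tables. Means ran from 1.10 to 4.81 FPKM in continuous light and from 1.01 to 6.03 FPKM in long days, apart from the long-day MSTRG.9453.1 over MIR407 at 42.5 FPKM. MSTRG.19817.1 over MIR398c, whose microRNA targets copper superoxide dismutase messages, had 1.09 to 2.995 FPKM in continuous light, and MSTRG.21877.1 had 0.0860 to 2.04 FPKM in long days. MSTRG.1376.1 over MIR830 had 1.80 to 4.35 FPKM in continuous light. The long-day spans over MIR407, MIR172b and MIR5027 reached 60980, 28149 and 66921 nt, so those models cross many other genes. No rhythm was called for microRNA members in continuous light (0 of 20), and 2 of 18 were called in long days, MSTRG.8756.1 over MIR825 and the long-span MSTRG.23149.1. Of all transcripts tested for a 24 h rhythm (limma) 10.3% and 8.85% were called, and counts this small say nothing particular to the group.

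Members opposite an annotated gene were mostly spliced and mostly lower than it. Of those opposite an annotated transcript alone, 129 of 187 in continuous light and 108 of 175 in long days had exactly 2 exons, and 3 and 4 had 1. The 11 and 7 members with no strand that overlapped annotated transcripts each had 1 exon and could not enter this class. The share of spliced members is therefore partly set by the rule. The 187 and 175 members lay opposite 151 and 146 distinct genes. Where that gene had a mean of at least 1 FPKM (174 and 158 members), the member's level was a median of 14.7% and 14.8% of the gene's. Opposite genes of at least 100 FPKM (51 and 43 members) this was 0.755% and 0.840%, and opposite genes of 1 to 100 FPKM (123 and 115) it was 28.2% and 22.3%, a split in which the minimum of 1 FPKM for members bounds the share from below. The member stood above its gene in 8 and 4 cases. Across the 16 libraries of a regime the member's level and that of the gene, each in FPKM of the same libraries, had a median correlation of 0.240 and 0.279 (Pearson's r), with 132 of 174 and 118 of 158 above 0, 45 and 37 over 0.5, and 2 and 2 under -0.5.

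In many of these 2-exon members the gap between the exons had the length of a distance between repeated bases. The tables give no exon positions, so the length skipped was taken as the span minus the transcript length. Skipped lengths under 60 nt were found in 12 of 129 members opposite a gene in continuous light (9.30%) and 6 of 108 in long days (5.56%), in 0 of 51 and 0 of 42 2-exon members with no annotated transcript, and in 1 of 2830 and 4 of 2926 annotated 2-exon transcripts (0.0353% and 0.137%). The 21 nt that MSTRG.8537.1 skipped equal the distance between both copies of the repeat of 17 bases printed above. Its level was 0 in 6 of the 16 libraries and 263 FPKM at its highest, while GRP23 on the other strand had a mean of 122 FPKM. At the skipped distance, a run of at least 10 identical bases lay inside the span for 43 of 129 (33.3%) and 42 of 108 members (38.9%), against 2 of 51 (3.92%) and 2 of 42 (4.76%) with no annotated transcript and 0.919% and 0.855% of annotated 2-exon transcripts. This measure was chosen after values were seen.

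Long gaps joined neighbouring copies of a gene. Skipped lengths over 1000 nt were found in 23 of 129 (17.8%) and 31 of 108 (28.7%) members opposite a gene, against 3.53% and 3.45% of annotated 2-exon transcripts. Of 40 members opposite 2 or more coding genes in continuous light and 70 in long days, 33 and 46 spanned a pair of genes whose sequences aligned over at least 50% of the shorter, with at least 85% identity for 21 and 31. Of 14241 pairs of neighbouring coding genes on one strand of the reference, 8.95% aligned in this way and 2.68% reached 85%. These shares are per single neighbouring pair, while a member counts if any pair of the coding genes it spans aligned, so they are not like for like. For the 23 and 30 members with 2 exons opposite such a pair of copies, the skipped length came within 5 nt of a distance between aligned bases of the copies in 20 and 27 cases. MSTRG.780.1 and 3 other members opposite the EF1A genes AT1G07920 and AT1G07930 skipped 3457 nt, the distance of the run printed above, and had means of 105, 89.2, 59.2 and 48.6 FPKM in long days. MSTRG.780.1 itself had a lowest, median and highest library of 83.1, 102 and 133 FPKM. Other such pairs were AT4G12510 and AT4G12520 (3865 nt, continuous light), the cytochrome P450 genes CYP706A1 and CYP706A2 (5098 nt, both tables), the nitrile-specifier genes NSP3 and NSP1 (3965 nt in continuous light and 3970 nt in long days) and the indole glucosinolate methyltransferase genes IGMT3 and IGMT2 (5221 nt, long days).

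**Figure D3:**
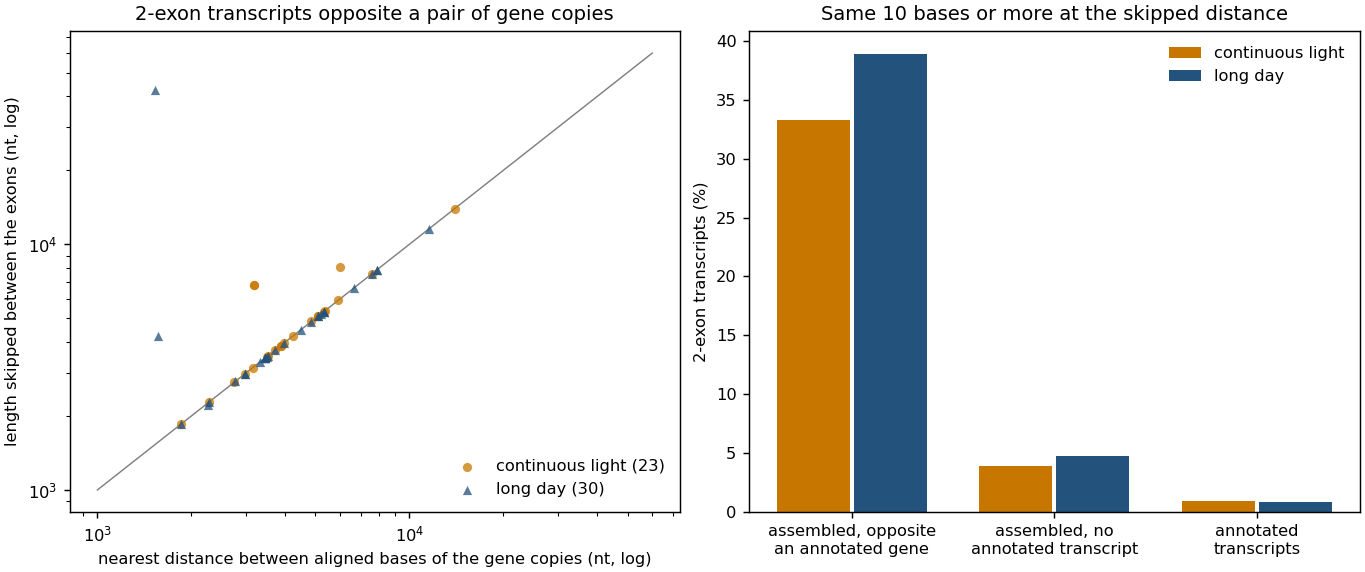
Left, length skipped between the exons in nt against the nearest distance between aligned bases of the gene copies in nt, both on log scales, for 23 members in continuous light and 30 in long days, with the line of equality. Right, percent of 2-exon transcripts with at least 10 identical bases at the skipped distance, where members opposite an annotated gene stand at 33.3% and 38.9% and annotated transcripts below 1%.

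A further set skipped the length of an intron of the gene on the other strand, though the place of the gap is not given. In continuous light 31 of the 129 members and in long days 28 of the 108 skipped a length equal to that of an annotated intron of that gene inside their span, and 23 introns were met in both tables. Of all 136162 annotated introns 98.4% begin with GT and end with AG, but of these introns 21 of 31 (67.7%) and 21 of 28 (75%) do. GC-AG introns were 5 of 31 and 5 of 28, against 1.10% of all introns. The start ATATCCTT, printed above for UXS4, NSF and POD1 and known from U12-type introns, which a minor spliceosome removes, was found in 5 of 31 and 2 of 28, against 0.0566% of all introns. The usual plant start GTAAG was found in 1 of 31 and 1 of 28, against 16.8% of all. Members of this set stood at a median of 47.2% and 46.3% of the level of their gene, against 9.23% and 10.7% for the other members opposite a gene, and their median correlation with it was 0.357 and 0.359. Neither such an intron nor a run of 10 repeated bases was found for 56 of 129 and 40 of 108. This measure too was chosen after values were seen, and the part that the strand given to a spliced read has in these members was not tested. How often such lengths would be equal by accident was not tested either.

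The set held some of the highest members. MSTRG.9298.1, opposite P5CS1, which makes the rate-limiting enzyme of proline synthesis, had a lowest, median and highest library of 33.0, 76.6 and 127 FPKM. It skipped 288 nt, the length of a P5CS1 intron. MSTRG.7750.1, opposite the glyceraldehyde-3-phosphate dehydrogenase gene ALDH11A3, had 5.74, 64.4 and 97.9 FPKM and skipped 77 nt. Opposite VAB2, a subunit of the vacuolar proton pump, MSTRG.18347.1 stood at 47.2% of the gene in continuous light and MSTRG.20307.1 at 46.9% in long days.

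Rhythms were tested by fitting a curve of 24 h period to log2(FPKM + 1) in each table. Called rhythmic at an adjusted p under 0.05 (limma, moderated F test, Benjamini-Hochberg over all transcripts tested) were 30 of 456 members in continuous light (6.58%) and 16 of 440 in long days (3.64%). Of all transcripts tested 10.3% were called in continuous light and 8.85% in long days, so both shares of members lay below the background. An unadjusted p under 0.05 was reached by 18.2% and 17.3% of members, against 22.7% and 22.6% of all transcripts. Level went with the call: in continuous light 2.13% of members and 2.37% of all transcripts were called at 1 to 2 FPKM, 3.87% and 4.41% at 2 to 5, 16.7% and 8.99% at 5 to 10, and 18.5% and 22.1% from 10 FPKM up. In long days members stood at 1.16%, 0.714%, 8.16% and 11.5% in these ranges and all transcripts at 2.15%, 4.64%, 8.90% and 17.4%. The median peak-to-trough fold of called members, on the scale of FPKM + 1, was 1.97 and 2.06.

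**Figure D4:**
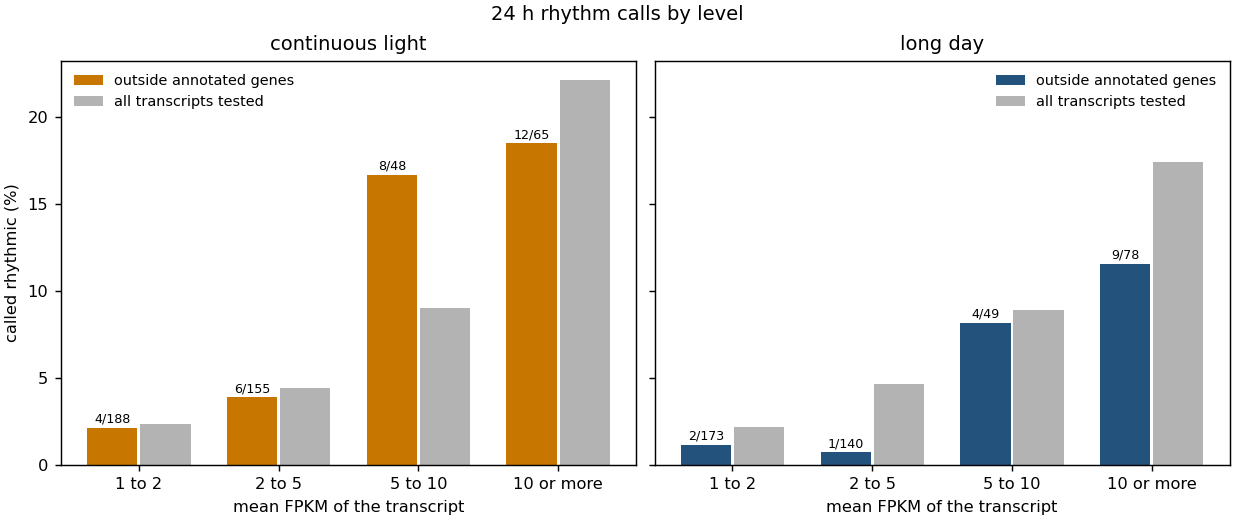
Percent of transcripts called rhythmic by range of mean FPKM, for members (coloured, with called and tested counts above the bars) and all transcripts tested (grey), in each regime. In both groups the share is larger above 5 FPKM than below it, and in the highest range members stand at 18.5% and 11.5% against 22.1% and 17.4% of all transcripts.

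Of the called members, 12 of 30 in continuous light peaked from 12 to 16 h and 5 from 16 to 20 h, while in long days 3 of 16 peaked from 12 to 16 h and 6 from 16 to 20 h. Of all rhythmic transcripts 30.9% and 15.4% peaked in these windows in continuous light and 18.4% and 35.2% in long days. By class, 11 of 171 members at pseudogenes, 11 of 150 opposite a coding gene alone, 4 of 33 with no reference gene, 2 of 54 at noncoding RNA genes and 2 of 48 of the rest were called in continuous light. In long days these counts were 5 of 167, 4 of 146, 2 of 33, 1 of 37 and 4 of 57.

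Of 241 position-matched members tested in both regimes, 3 were rhythmic in both, with 23 matched members called in continuous light and 9 in long days. Matching was 1 to 1 and required the same strand label. LHCB2, AT3G07280 and the place of MSTRG.3653.1 also held a called member in each regime, but these are not among the 3. The share of all transcripts called in both regimes is not given here, so nothing particular to members is read from this count. MSTRG.1361.1 and MSTRG.1450.1 lay opposite AT1G13920 (chr1:4759054-4759869 in continuous light). In continuous light the member had 0.163 to 3.31 FPKM with a median of 1.55 and in long days 0 to 3.84 FPKM with a median of 1.09. It was high at 8, 11 and 14 h and low at 23 and 26 h in both regimes. The fitted amplitude was 0.80 ± 0.09 (log2 scale, SE, 16 libraries) with the peak at 12.3 h in continuous light (adjusted p = 0.00016, limma), and 1.05 ± 0.08 with the peak at 11.02 h under long days (adjusted p = 1.3e-05, limma). Its gene had r of 0.75 and 0.89 with it, a level of 5.99 and 5.36 FPKM and fitted peaks at 11.2 and 11.03 h.

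MSTRG.17531.1 and MSTRG.19436.1 lay opposite AT4G30470 and skipped 811 nt, the length of an intron of that gene. In continuous light the member had 13.8 to 55.9 FPKM with a median of 24.4, and in long days 19.2 to 170 FPKM with a median of 43.0, with the long-day libraries at 2 h and 26 h (170 and 153 FPKM) above every other library. The amplitude was 0.65 ± 0.12 (SE) with the peak at 22.8 h in continuous light (adjusted p = 0.0052, limma), and 1.02 ± 0.17 with the peak at 23.9 h under long days (adjusted p = 0.0047, limma). The member stood at 92.9% and 116% of the gene's level and had r of 0.83 and 0.99 with it. MSTRG.6977.1 and MSTRG.7681.1, opposite the noncoding RNA AT2G15128, had 7.46 to 17.5 and 6.32 to 16.4 FPKM with medians of 9.44 and 11.6. Their amplitudes were 0.39 ± 0.07 and 0.37 ± 0.09 (SE), with peaks at 18.1 and 16.9 h (adjusted p = 0.0086 and 0.044, limma). The long-day call was lost without the library at 8, 14, 17, 20, 23, 26, 29, 32, 38, 41, 44 or 47 h, with adjusted p up to 0.11 (limma), and with rescaled or quantile-normalized libraries.

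The largest amplitudes of called members ran opposite the light-harvesting genes LHCB2.2 and LHCB2.1, which encode chlorophyll-binding antenna proteins of photosystem II and are 92.2% identical. MSTRG.6720.1 spanned 24623 nt between them (chr2:1799338-1823960) and had 0 to 125 FPKM with a median of 52.2 in continuous light. MSTRG.7326.1 had 0.0830 to 165 FPKM with a median of 43.2 in long days, and MSTRG.7326.2 had 0 to 266 FPKM with a median of 35.9. The span of MSTRG.7326.2 was 103029 nt and crossed many genes beyond LHCB2.1. MSTRG.6720.1, MSTRG.7326.1 and MSTRG.7326.2 were high at 2, 5, 8 and 11 h. In long days MSTRG.7326.1 fell to 5.64 FPKM or less in every night library. A further continuous-light model over this pair of genes, MSTRG.6720.3, had a mean of 32.5 FPKM and was not called rhythmic. The amplitude was 2.49 ± 0.43 (SE) with a peak at 5.65 h for MSTRG.6720.1 (adjusted p = 0.0044, limma), 3.52 ± 0.37 at 7.22 h for MSTRG.7326.1 (adjusted p = 0.00015, limma) and 3.86 ± 0.43 at 7.17 h for MSTRG.7326.2 (adjusted p = 0.00023, limma). MSTRG.6720.1 had r of 0.91 with the LHCB2.2 locus at 5.37% of its level, and MSTRG.7326.1 had r of 0.94 with LHCB2.1 at 10.2% of its level. In continuous light the RBCS3B and RBCS2B genes of the small subunit of Rubisco were likewise spanned by a rhythmic member, MSTRG.21266.2, with 0.0724 to 8.44 FPKM and a median of 3.53 (amplitude 1.02 ± 0.25 SE, adjusted p = 0.044, limma). Its call was lost without the library at 2, 5, 11, 14, 20, 23, 26, 29, 32, 35, 38 or 41 h, with adjusted p up to 0.103 (limma). Other continuous-light models of the same assembled gene over RBCS genes were not called rhythmic. These were MSTRG.21266.1, MSTRG.21266.4 and MSTRG.21266.6, with means of 8.27, 2.30 and 2.66 FPKM.

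Of the 31 members that skipped the length of an intron of the opposite gene, 5 were called rhythmic in continuous light. They lay opposite TRM3, UXS4, which makes UDP-xylose, FTSZ2-2, a plastid division protein, AT4G30470 and SPCH, the transcription factor that starts the stomatal lineage. Their r with the gene was 0.61, 0.36, 0.79, 0.83 and 0.78. In long days the member opposite AT4G30470 alone of the 28 was called. Of all transcripts tested 10.3% and 8.85% were called, so nothing particular to the set is read from these counts.

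Pseudogenes gave the largest rhythms after those opposite LHCB2 in continuous light. MSTRG.7040.1 at AT2G16367 had 125, 149, 187, 121, 105 and 148 FPKM in the continuous-light libraries at 17, 20, 23, 41, 44 and 47 h, the subjective night, and 8.54 to 118 FPKM in the other 10. Its long-day counterpart MSTRG.7751.1 had 26.5, 2.03, 2.01, 18.5, 4.25 and 5.57 FPKM in those libraries and up to 85.3 FPKM, at 29 h, in the other 10. The highest libraries thus lay in the subjective night in continuous light and in the early day in long days. The amplitude was 1.77 ± 0.19 (SE) and the peak at 21.7 ± 0.42 h (SE) in continuous light (11.7-fold, adjusted p = 8.4e-05, limma), and 1.55 ± 0.44 with the peak at 5.55 ± 1.1 h under long days (adjusted p = 0.089, limma). The curves differed between regimes (adjusted p = 0.0046 for the interaction, limma). The 2 models had different ends, 634 and 495 nt long.

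**Figure D5:**
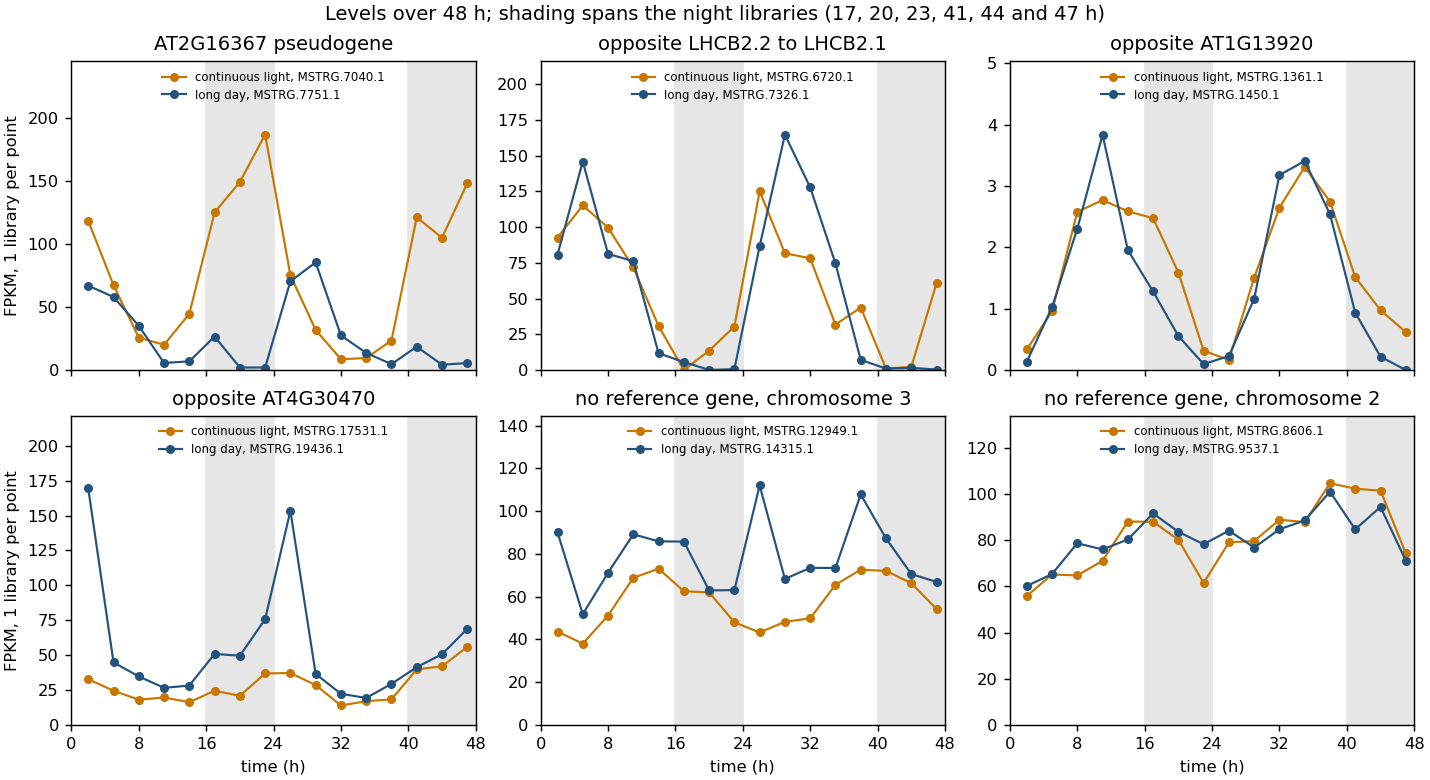
FPKM against time in h for 6 places with a member in each table, 1 library per point, continuous light in orange and long days in blue, with the hours that are night in long days shaded. At AT2G16367 the curves peak at 21.7 h (continuous light) and 5.55 h (long days), and opposite LHCB2, AT1G13920 and AT4G30470 the fitted peaks of the regimes lie within 2 h of each other.

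The interaction was tested for 351 matched members, and 2 were called, while 2.29% of all transcripts tested were called. An unadjusted p under 0.05 (limma) was reached by 37. The share of all transcripts at this unadjusted threshold is not given here, so no excess among members is read from it. The second call was MUG1, a gene domesticated from a Mutator transposase that the reference lists as a pseudogene. MSTRG.10509.1 had 11.3 to 13.99 FPKM with a median of 12.99 in continuous light, and MSTRG.11610.1 had 3.33 to 7.98 FPKM with a median of 5.28 in long days, so the ranges did not overlap, in tables with different models of 2 and 5 exons. The amplitude was 0.05 ± 0.04 (SE) in continuous light (adjusted p = 0.67, limma) and 0.38 ± 0.09 with a peak at 6.08 h in long days (adjusted p = 0.036, limma), and the interaction had an adjusted p of 0.036 (limma). That call was lost without the libraries at 2, 5, 14, 20, 26, 29, 32, 41, 44 or 47 h, with adjusted p up to 0.110 (limma).

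Other rhythmic pseudogene transcripts were more moderate. At AT3G56275, MSTRG.14136.3 had 1.12 to 26.4 FPKM with a median of 8.25 in continuous light (amplitude 1.15 ± 0.18 SE, peak 18.9 h, adjusted p = 0.0020, limma), and a second form of the same span, MSTRG.14136.2, had 4.96 to 37.4 FPKM with a median of 15.5 and an adjusted p of 0.047 (limma). The second call was lost without the library at 2, 8, 17, 23, 26, 29, 32, 35, 41, 44 or 47 h (adjusted p up to 0.118, limma). At AT1G05135, MSTRG.485.1 had 2.30 to 30.8 FPKM with a median of 8.86 in long days (amplitude 1.01 ± 0.15 SE, peak 19.6 h, adjusted p = 0.0018, limma). AT3G07280 carried 2 members that were rhythmic in continuous light. These were MSTRG.10822.1, with 6.30 to 19.6 FPKM, a median of 12.5 and a peak at 13.2 h (amplitude 0.59 ± 0.06 SE, adjusted p = 1.9e-05, limma), and MSTRG.10823.1 beside it with a peak at 12.2 h. MSTRG.11943.1 at the place of the first had 11.1 to 31.5 FPKM with a median of 24.1 in long days, and its peak lay at 15.6 h (adjusted p = 0.025, limma). This call was lost without the library at 2, 5, 14, 26 or 29 h, with adjusted p up to 0.062 (limma). In continuous light MSTRG.21785.1 at AT5G44417, a pseudogene of a berberine-bridge-like enzyme, had 1.27 to 12.5 FPKM with a median of 4.32 and peaked at 14.2 h (amplitude 0.78 ± 0.17 SE, adjusted p = 0.018, limma, and 0.057 without the library at 26 h). In long days MSTRG.14484.1 at AT3G44717 had 0 to 3.36 FPKM with a median of 1.13 and peaked at 15.4 h (amplitude 0.61 ± 0.14 SE, adjusted p = 0.038, limma), a call lost without the library at 2, 5, 17, 20, 23, 26, 29, 32, 38 or 41 h (adjusted p up to 0.083, limma). The glucosinolate gene AOP2, truncated in Col-0, carried MSTRG.15144.1, which had 4.68 to 13.8 FPKM with a median of 8.07 in continuous light and peaked at 1.37 h (adjusted p = 0.0031, limma). MSTRG.6853.1 at SADHU1-1 was called in continuous light with an amplitude of 0.33 ± 0.07 SE and a peak at 15.3 h (adjusted p = 0.020, limma, up to 0.055 without the library at 2, 5 or 38 h), and its long-day counterpart had an amplitude of 0.31 ± 0.09 SE (adjusted p = 0.082, limma).

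Where the reference lists no gene, the spliced MSTRG.12949.1 was called in continuous light with an amplitude of 0.39 ± 0.04 (SE), a peak at 15.3 h and an adjusted p of 4.9e-05 (limma). Its curve rose to 73.0 FPKM at 14 h and 72.6 FPKM at 38 h and fell to 37.9 FPKM at 5 h and 43.2 FPKM at 26 h. In long days its counterpart had an amplitude of 0.13 ± 0.10 (SE) and an adjusted p of 0.68 (limma). The difference between regimes was not called for this place. MSTRG.20505.1 (chr5:7420159-7420619) was low, with 0 to 4.88 FPKM and a median of 1.10, and peaked at 2.17 h (amplitude 1.04 ± 0.14 SE, adjusted p = 0.00056, limma). In long days MSTRG.3653.1 (chr1:17296103-17296442) had 3.52 to 11.8 FPKM with a median of 7.45 and peaked at 16.7 h (amplitude 0.55 ± 0.09 SE, adjusted p = 0.0047, limma). Its place also held a rhythmic member in continuous light, MSTRG.3405.1, which had no strand and peaked at 16.9 h.

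Few members differed between night and day, where the libraries at 17, 20, 23, 41, 44 and 47 h were set against the other 10. In continuous light 3 of 456 were called, while 1.18% of all transcripts were, 0.752% higher and 0.427% lower at night. MSTRG.7040.1 at AT2G16367 (2.09 ± 0.47, log2, SE) and MSTRG.14136.3 at AT3G56275 (1.47 ± 0.33) were higher in the subjective night, and MSTRG.6720.1 opposite LHCB2 was lower (-3.23 ± 0.74). The count was 0 or 1 without the library at 5, 8, 11, 17, 20, 26, 29, 32, 35, 38, 41, 44 or 47 h. In long days 7 of 440 were called, while 3.78% of all transcripts were, 2.95% higher and 0.827% lower. MSTRG.485.1 (1.43 ± 0.23), MSTRG.11832.1 (0.55 ± 0.14), MSTRG.23149.1 (0.51 ± 0.12), MSTRG.7682.1 (0.43 ± 0.12) and MSTRG.20307.1 opposite VAB2 (0.27 ± 0.07) were higher, and MSTRG.7326.2 (-5.46 ± 0.70) and MSTRG.7326.1 (-4.94 ± 0.63), which span LHCB2.2 and LHCB2.1, were lower at night. This count was 3 or 4 without the library at 5, 8, 20, 23, 32 or 44 h and 11 without that at 38 h. MSTRG.485.1, MSTRG.7326.1 and MSTRG.7326.2 kept their calls without each library in turn, with adjusted p of 0.00887 or less (limma), and the other 7 night calls of the 2 regimes were each lost without at least 6 of the 16 libraries.

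Clock motifs were searched on both strands from 250 bases before to 50 bases after the start of stranded nuclear members. The evening element AAATATCT was found for 3.20% of 375 members in continuous light and 2.93% of 376 in long days, against 5.65% of all protein-coding genes over the same window. The CCA1 binding site AAAAATCT was found for 5.60% and 4.26% against 7.88%, the G-box CACGTG for 5.60% and 5.85% against 7.68%, and the TBX site AAACCCT for 10.4% and 10.11% against 10.02%. The evening element and the CCA1 site are different words of the same length, so no position is counted under both. Among rhythmic stranded members the evening element lay near 2 of 25 in continuous light, MSTRG.10823.1 at AT3G07280 (82 bases before the start) and the member opposite UXS4, and near 1 of 16 in long days, MSTRG.16078.2 opposite AT3G60290. MSTRG.16078.2 had 0.354 to 4.87 FPKM with a median of 2.33 and peaked at 15.7 h (amplitude 0.71 ± 0.16 SE, adjusted p = 0.034, limma). Its call was lost without the library at 2, 8, 17, 20, 26, 29, 38 or 44 h, with adjusted p up to 0.076 (limma). Both forms at AT3G56275 had a G-box 189 bases before the start. The polyadenylation signal AATAAA lay in the last 50 bases of 6.13% and 3.46% of members, against 9.77% of coding genes. Windows of members were set by the ends of assembled models, which mostly differed between the tables. Those of coding genes were set by annotated ends, so these motif shares are not like for like. A match is a word in the sequence, not a shown site, and the window is 300 bases of TAIR10.1 at chr3:2321146-2321445 (minus) for MSTRG.10823.1, where capitals mark the evening element read from the other strand.
MSTRG.10823.1 start: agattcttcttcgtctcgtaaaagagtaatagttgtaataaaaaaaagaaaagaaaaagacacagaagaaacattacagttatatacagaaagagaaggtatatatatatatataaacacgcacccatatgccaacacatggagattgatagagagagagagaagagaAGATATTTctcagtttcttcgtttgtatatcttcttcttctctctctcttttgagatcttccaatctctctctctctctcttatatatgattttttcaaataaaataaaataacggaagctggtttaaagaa

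None of the 35 clock and photoperiod genes of a list that holds CCA1, LHY, TOC1, GI and the PRR, RVE and LNK families was overlapped by a member of at least 1 FPKM in either table. The same held for 7 loci of long noncoding RNAs, among them FLORE, which runs opposite the clock output gene CDF5, and COOLAIR, which runs opposite FLC. The tables list long noncoding RNA genes as annotated, so such transcripts could not be members at these loci by the rule. Members opposite an annotated transcript alone lay opposite only 151 and 146 distinct genes, in a reference with 27444 protein-coding genes. Nothing particular to the genes of either list is therefore read from these counts.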

How the data were processed

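RNA sequencing of 16 continuous-light and 16 long-day libraries was analysed from transcript tables in FPKM that the authors deposited, 1 table per regime, per the file headers. Reads were placed on TAIR10, per the submitters' processing notes. The sources used here name no aligner or assembler and none of their settings. Positions of 1-based spans were compared with the RefSeq TAIR10.1 annotation. Rows were taken as deposited, filtered at a mean of at least 1 FPKM and moved to log2(FPKM + 1), so folds of low transcripts are understated. Curves of 24 h period, the night contrast and the interaction of regime with the curve were fitted with limma 3.58.1 in R 4.3.3 (lmFit, eBayes with trend) over all rows of a table, with 1 library per time point and no replicates of a time point. Calls were made at a Benjamini-Hochberg adjusted p under 0.05 over all rows tested, and the fits were tested on simulated data. Between tables members were matched 1 to 1 at an overlap of at least 50% of both spans and the same strand label. Sequence copies were found with blastn 2.17.0. A gene's level opposite a member was the sum of its annotated rows and of assembled rows of the same gene identifier. Depth is unknown, so no counting intervals are given.

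Named members were, per table, the 10 of highest mean, the 10 of largest amplitude among those called, up to 5 of the largest night change in each direction, those rhythmic in both tables, and those nearest the minimum. Others named were chosen after their values were seen. Members and lists were chosen with earlier results of these data known. Tables were tested separately except for the interaction, where a constant offset between them cancels. No per-sample column was left without a sample. Alternatives changed the pseudocount, the minimum, the scaling, a trend, the block, the overlap and each library in turn. Time points share labels across regimes, which do not say that such libraries were sampled together.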

Additional observations from a re-analysis of the deposited data

Results flagged for a closer look

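The rhythm of the transcript at the defensin-like pseudogene AT2G16367 differed between regimes in the test of the difference itself (interaction adjusted p = 0.004594, limma, MSTRG.7040.1 against MSTRG.7751.1). Its adjusted p stayed between 0.0013 and 0.0238 when the libraries of 1 time point were left out in turn.

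The rhythm of the transcript at MUG1 differed between regimes in the same test (interaction adjusted p = 0.03621, limma, MSTRG.10509.1 against MSTRG.11610.1). Its adjusted p was 0.0289 to 0.110 when the libraries of 1 time point were left out in turn.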

How the results depend on the processing

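Counts of rhythmic members were 20 to 39 in continuous light (reported: 30) and 12 to 22 in long days (16) over the 7 other settings, and 20 to 38 and 11 to 17 with 1 library left out. The count for night against day in continuous light, reported as 3, was 1 with a pseudocount of 0.1, 0 with no filter on the mean, 8 with a linear term in time, 5 with the day as a block and 0 to 4 with 1 library left out. In long days, reported as 7, it was 3 with rescaled libraries, 3 with quantile normalization, 13 with a linear term, 12 with the day as a block and 3 to 11 with 1 library left out. The rhythm difference, reported as 2, was 1 with no filter, 4 with a linear term, 0 at 80% overlap and 1 to 3 with 1 time point left out. Neither of the 2 called pairs met the 80% overlap, so neither was tested at that setting. With the time point as a replicate block, a pairing that the labels do not state, the count was 1. There AT2G16367 had an adjusted p of 0.0190 and MUG1 of 0.0952 (limma). No named member's direction reversed in any setting. Of the 13 named rhythmic members in each table, 10 in continuous light and 9 in long days kept the call in the other settings, and 9 and 9 with each library left out. With FPKM alone, depth cannot set limits for members near 1 FPKM.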

Other observations

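Open reading frames were short in most unspliced members. Of 139 members with 1 exon in continuous light 16 had an open reading frame of at least 100 codons from ATG to stop, and of 128 in long days 15 did, with medians of 44 and 47.5 codons. The longest frames had 653 and 676 codons. A copy in organelle DNA over at least 50% of the span at 90% identity was found for 3 nuclear members in continuous light and 12 in long days. At pseudogenes 38 of 171 and 49 of 167 members had another genomic copy, and where the reference lists no gene 11 of 33 and 10 of 33.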
